A study of Mus musculus with 2 samples.

Results

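Differentiating myocytes of the embryonic mouse limb were identified in 2 single-cell RNA libraries by UMIs of Myog, Mymk and Mymx. A barcode stands for a droplet that should hold a cell, and a UMI (unique molecular identifier) for a captured RNA molecule. A barcode was a member if it had at least 500 detected genes, under 10% mitochondrial UMIs, 3 or more summed UMIs of the 3 genes and no UMI of Cdh5 or Ptprc, which mark endothelial and immune cells. In all, 365 of the 16377 barcodes that passed the gene and mitochondrial limits were members, out of 18721 deposited. At E12.5 they were 219 of 12271 kept barcodes (1.78%, interval 1.56 to 2.03), and at E15.5 they were 146 of 4106 (3.56%, 3.01 to 4.17). The fixed threshold is a lower level in the deeper E15.5 library. With barcodes of 2000 or more UMIs thinned to 2000 UMIs, the rule gave 2.32% at E15.5. The E12.5 share then stayed inside its interval. Measured UMIs chose the members, so their levels of the chosen genes, and all comparisons with other barcodes of the same library, are given as a description.

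The E12.5 and E15.5 groups were both wild-type C57Bl/6 embryos, named by embryonic day, with no treatment or transgene in the labels. Skeletal muscle tissue of fore- and hindlimbs was combined, after mechanical and trypsin dissociation. How many embryos entered each library, and of which sex, is not given in the sources used here. With 1 library per age there was no replicate error, so no test between ages was made, and every interval is a 95% interval that covers counting error only.

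Skeletal muscle cells arise from progenitors that carry the transcription factors Pax3 and Pax7, take on Myf5 and Myod1, and then switch on Myog (myogenin) as they leave the cell cycle. Myog acts with partners of the Mef2 family on the genes of the contractile apparatus, and binds E-boxes, the short DNA motif of basic helix-loop-helix factors. Mymk (myomaker) and Mymx (myomixer) are membrane proteins that drive the fusion of myocytes into multinucleate fibres. In the mouse limb, the earlier age falls in embryonic myogenesis, when the primary fibres form, and the later age in foetal myogenesis, when secondary fibres form around them.

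The 250 bases before the RefSeq start of 4 members of this programme are printed here, to show where the E-box motif occurs. They belong to Myog itself, to the acetylcholine receptor subunit Chrna1, and to Myh3 and Ckm, whose levels differed between the ages in opposite directions. Capitals mark the motif CANNTG, which reads as CANNTG on both strands. Sequences run 5′ to 3′ on the gene's strand, from RefSeq on build GRCm38.p6.
Myog, chr1:134289754-134290003, plus strand: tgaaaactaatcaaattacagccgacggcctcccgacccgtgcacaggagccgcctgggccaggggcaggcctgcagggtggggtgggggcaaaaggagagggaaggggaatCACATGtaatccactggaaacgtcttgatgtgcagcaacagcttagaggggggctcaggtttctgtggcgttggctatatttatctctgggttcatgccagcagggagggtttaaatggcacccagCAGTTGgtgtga
Chrna1, chr2:73580339-73580588, minus strand: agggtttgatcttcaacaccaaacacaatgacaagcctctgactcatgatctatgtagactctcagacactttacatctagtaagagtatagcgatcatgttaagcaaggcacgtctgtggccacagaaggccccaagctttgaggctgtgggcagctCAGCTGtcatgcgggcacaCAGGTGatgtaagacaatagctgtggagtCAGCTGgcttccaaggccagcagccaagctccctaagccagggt
Myh3, chr11:67078050-67078299, plus strand: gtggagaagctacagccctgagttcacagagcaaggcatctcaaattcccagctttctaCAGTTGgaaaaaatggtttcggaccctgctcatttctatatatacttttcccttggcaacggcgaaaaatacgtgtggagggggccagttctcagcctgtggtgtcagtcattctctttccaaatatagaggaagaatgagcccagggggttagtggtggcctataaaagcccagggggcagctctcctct
Ckm, chr7:19410844-19411093, plus strand: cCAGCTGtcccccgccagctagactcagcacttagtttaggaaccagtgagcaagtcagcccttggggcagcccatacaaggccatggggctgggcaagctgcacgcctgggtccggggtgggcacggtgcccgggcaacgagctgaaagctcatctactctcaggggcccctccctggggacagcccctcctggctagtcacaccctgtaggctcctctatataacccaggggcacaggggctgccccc
The Myog window held 2 E-boxes, that of Chrna1 held 3, and those of Myh3 and Ckm held 1 each. The form CAGCTG made up 2 of the 3 in Chrna1 and the only one in Ckm. Some genes had more than 1 window, and a gene was counted if any of its windows held the motif. CANNTG was present for 69.3% of all 27025 genes with an entry. It was present for 58.1% of the 5275 genes that were measured in the members and matched. CAGCTG, a special case of CANNTG, was present for 14.7% and 13.7%. Among the other sarcomere genes listed below, 24 of 29 matched genes held CANNTG and 13 of 29 (44.8%) held CAGCTG. Among the 25 proliferation genes these were 11 and 2 of 21. CAGCTG was present for 17.4% of the matched genes higher at E15.5 and for 17.8% of those lower. A motif match is a description of these letters and not a binding site.

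Members were deeper at E15.5. Their median was 4228 UMIs at E12.5 (lowest 994, highest 22475) and 14501 at E15.5 (1305 to 94309), with 1896 and 3401 detected genes. The other kept barcodes had medians of 2432 and 9381.5 UMIs. Ribosomal protein genes took 17.7% of the UMIs of E12.5 members and 27.7% in E15.5 members, against 12.8% and 20.6% in the other barcodes. The mitochondrial median was 3.59% and 4.43%. Read from Xist and Y-linked genes, 53 members were male, 96 female and 70 unread at E12.5, and 26, 94 and 26 at E15.5, so embryos of both sexes were in each library. Of the barcode sequences, 17 occurred in both libraries, and none of them was a member in both.

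Levels are given as CPM, counts of a gene over the summed UMIs of a set of barcodes, scaled per 1000000. CPM from 3-prime tags are not scaled by transcript length and are compared here between sets, not between genes.

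Myog (chr1:134289989-134292548, plus strand, GRCm38) carried most of the selection. In the members it stood at 1096 CPM (interval 1034 to 1161) at E12.5. At E15.5 it stood at 1457 CPM (1409 to 1507), and 218 of 219 and 146 of 146 members had a UMI of it. Mymk (chr2:27061636-27072179, minus strand) stood at 331 and 238 CPM, with a UMI in 71.2% and 65.1% of members. Mymx (chr17:45600971-45602102, minus strand) stood at 302 and 531 CPM, with a UMI in 64.4% and 79.5%. The log2 ratios (E15.5 over E12.5) were -0.47 for Mymk, close to that of the median measured gene at -0.38, and 0.81 for Mymx. Since these genes chose the members, at a threshold that differs in CPM between the ages, nothing is read from their ratios. In the other kept barcodes Myog stood at 6.96 and 8.81 CPM. All 3 genes were seen together in 98 members (44.7%) at E12.5 and in 88 (60.3%) at E15.5. Myog with Mymk but without Mymx was seen in 57 members at E12.5 and in 7 at E15.5, and Myog alone in 21 and 23.

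The threshold of 3 UMIs does not mean the same level at both depths. Among members with exactly 3 UMIs of the chosen genes, these genes made up a median of 831 CPM in 23 barcodes at E12.5 and 319 CPM in 10 barcodes at E15.5. Summed rule-gene UMIs ran from 3 to 28 with a median of 7 at E12.5, and from 3 to 271 with a median of 28.5 at E15.5. Just outside the threshold, the 37 barcodes with 2 UMIs at E12.5 held Ttn at 5672 CPM, against 6692 CPM in those with 3 and 15231 CPM in the 130 members with 7 or more. At E15.5 the 24 barcodes with 2 UMIs held Ttn at 255 CPM, the 10 with 3 held 537 CPM and the 116 with 7 or more held 2789 CPM. The E15.5 members with 4, 5 and 6 UMIs (8, 4 and 8 barcodes) held 155, 56.5 and 335 CPM. The level there thus did not rise steadily across the threshold, and some members held less than the barcodes just outside it. Ttn encodes titin, the spring of the sarcomere. At both ages the barcodes next to the threshold carried less titin RNA than the members far above it.

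**Figure D1:**
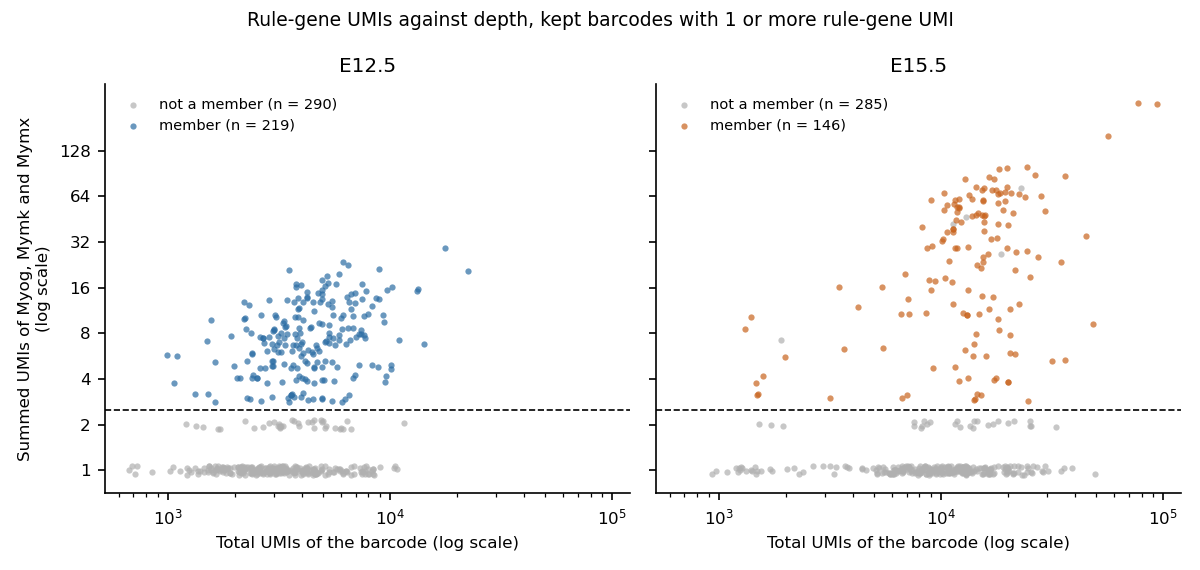
Summed UMIs of Myog, Mymk and Mymx (vertical axis, log scale, points spread slightly to show overlaps) against the total UMIs of the barcode (horizontal axis, log scale), for each kept barcode with at least 1 such UMI. The dashed line lies between 2 and 3 UMIs, and the E15.5 members reach 271 UMIs where the E12.5 members reach 28.

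Markers of other cell types were present in the members. The 9 connective tissue markers summed to 843 CPM at E12.5 and 1178 CPM at E15.5, none at 0, against 3940 and 10334 CPM in the other kept barcodes and 459 and 753 CPM in endothelial barcodes, which should lack them. After each barcode was thinned to 2000 UMIs, 21.2% of members and 20.5% of endothelial barcodes at E12.5 held a UMI of its members Prrx1, Pdgfra, Osr1 or Twist2, and 7.91% and 4.11% at E15.5. The 7 endothelial markers summed to 5.63 and 31.8 CPM, with Kdr, Emcn, Cldn5 and Esam at 0 at E12.5 and Esam at 0 at E15.5. The 8 immune markers summed to 20.6 and 2.09 CPM, with Tyrobp at 0 at E12.5 and Adgre1, Aif1 and C1qa at 0 at E15.5. At E12.5, 19 of the 22 immune UMIs (86.4%) lay in the 3 deepest members, and the remaining members held 2.96 CPM. Chondrocyte markers summed to 359 and 29.3 CPM, where the other barcodes held 2512 and 436 CPM. In the list of mural and smooth muscle markers, Acta2 alone gave 2091 and 964 CPM, and Myh11 was at 0 at both ages. Acta2, smooth muscle actin, is also made by developing skeletal muscle. The part of these other types in the results was not tested, except where a value is given beside a gene.

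Against the other kept barcodes of the same library, the genes that stood out were those of the contractile apparatus. At E12.5, 8.54% of 7632 measured genes were higher in the members, and at E15.5 6.93% of 6942, where measured means 20 CPM or more in either set and higher means 2-fold or more with an interval clear of equality. The highest ratios at E12.5 (log2, with 10 CPM added to both sides) belonged to Actc1 (6.92), Myh3 (6.90) and Mylpf (6.78), and at E15.5 to Mylpf (6.54), Actc1 (6.39) and Myog (6.29). Actc1 is the cardiac actin that embryonic skeletal muscle uses, Myh3 the embryonic myosin heavy chain, and Mylpf the fast regulatory light chain. Of the 15 highest genes at each age, 13 were shared. Klhl41 and Rbm24 were among them at E12.5 only, and Mymx and Tnnt3 at E15.5 only. Of the other sarcomere genes, 37 of 38 measured were higher in the E12.5 library and 30 of 32 in the E15.5 library. The nuclear factor I family was lower than in the other barcodes for 4 of 4 genes at both ages. The share of all measured genes that were lower in this comparison is not given here, so that count has no background. The family's median log2 ratio, with no CPM added, was -2.14 at the earlier age and -1.54 at the later. The median measured gene had log2 ratios of -0.28 and -0.25. These comparisons follow from the choice of members.

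Members were also set against progenitors with 3 or more summed UMIs of Pax7 and Myf5, of which there were 29 at E12.5 and 148 at E15.5. Members had higher levels than these for 7.72% of 7115 measured genes at the earlier age and 7.37% of 6091 at the later, and lower levels for 9.81% and 8.83%. Of the other sarcomere genes, 34 of 38 measured at E12.5 and 29 of 32 measured at E15.5 were higher in the members. In the proliferation list, 18 of 25 genes were lower in members than in progenitors at E12.5 and 8 of 25 were at E15.5. Pax7 stood at 6.56 and 25.6 CPM in the members and at 506 and 220 CPM in the progenitors that it helped to choose. Cdkn1a, which encodes the cell cycle inhibitor p21, stood at 624 and 356 CPM in the members and at 13.0 and 4.31 CPM in the progenitors. Ttn was already present in the progenitors, at 726 and 133 CPM against 12974 and 2378 CPM in the members.

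**Figure D2:**
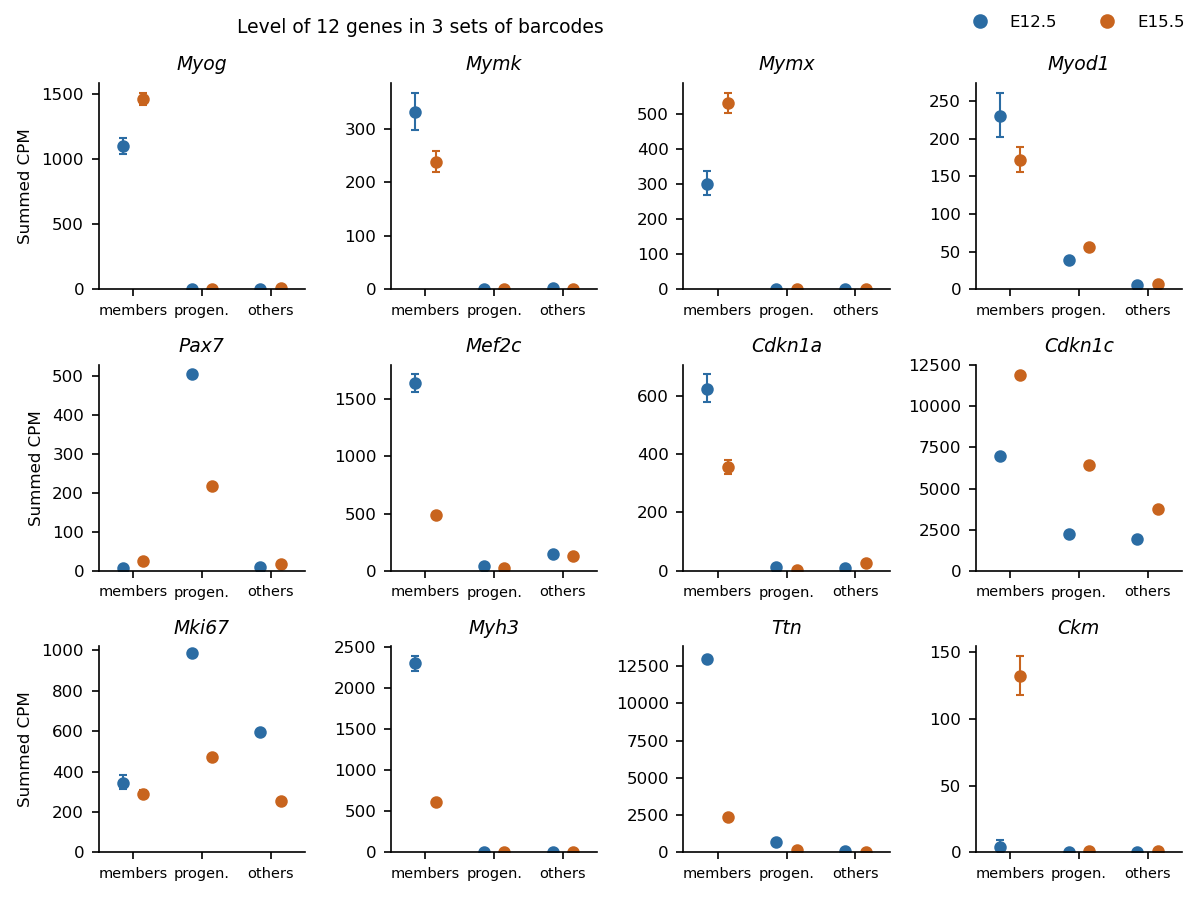
Summed CPM (vertical axes, from 0) of 12 genes in members, Pax7 and Myf5 progenitors and other kept barcodes at E12.5 (blue) and E15.5 (orange), with 95% counting intervals on the members. Myh3 and Ttn are lower at E15.5 in the members, and Ckm is near 0 outside them.

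Between the ages, levels in the members were lower at E15.5 for more genes than they were higher. Of 6616 measured genes, 288 (4.35%) were higher at E15.5 and 1417 (21.4%) were lower, by 2-fold or more with an interval clear of 0 on the log2 scale. The median measured gene had a log2 ratio (E15.5 over E12.5) of -0.38 in the members, -0.35 in the other barcodes and -0.33 in the progenitors. Relative to that median, 787 genes (11.9%) were higher and 721 (10.9%) lower, and 1112 genes (16.8%) changed the sign of their ratio. Gene counts below are on the unshifted scale unless they are said to be relative to the median gene. The shares of all measured genes, 4.35% higher and 21.4% lower, are the background for the counts of each list.

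**Figure D3:**
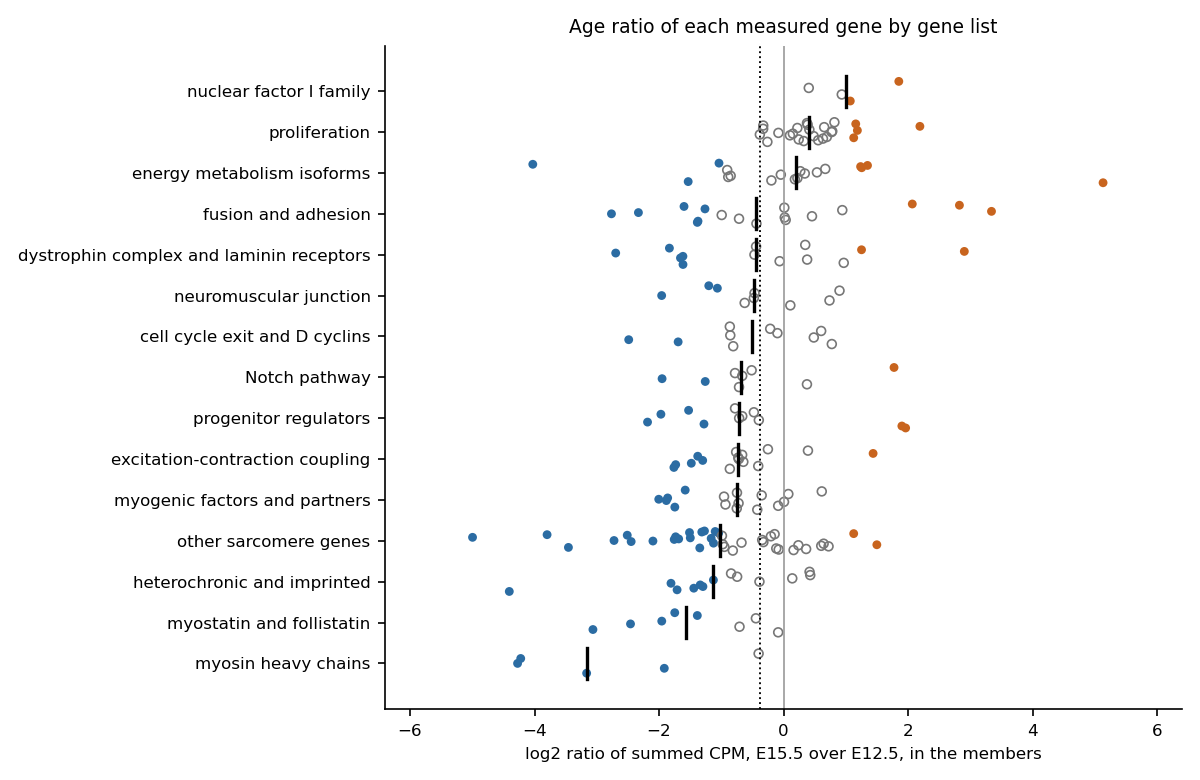
The log2 ratio of summed CPM in the members, E15.5 over E12.5 (horizontal axis), for each measured gene of 15 gene lists (rows). Filled points differ by 2-fold or more with an interval clear of 0, the black bar is the list's median and the dotted line the median measured gene at -0.38. Most myosin, sarcomere and heterochronic genes lie left of the dotted line, and proliferation and nuclear factor I genes lie right of it.

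Among the regulators of progenitors, 11 of 17 genes were measured in the members, 2 were higher at E15.5 and 4 lower, with a median log2 ratio of -0.71, and their sum was 682 CPM at E12.5 and 399 CPM at E15.5. Pax7 stood at 6.56 and 25.6 CPM, a log2 ratio of 1.96 (interval 0.83 to 3.33) that rests on 7 and 61 UMIs. Under the alternatives given below this ratio ran from 0.63 to 3.89. At E15.5 Pax7 was higher in members near the threshold than in the rest, as given below. Msc (musculin), a repressor of the same helix-loop-helix class, stood at 13.1 and 49.0 CPM. Eya1 and Eya4, partners of sine oculis homeobox factors, had log2 ratios of -1.97 and -1.53. Met, the receptor that guides migrating muscle precursors, stood at 24.4 and 10.1 CPM.

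Among the myogenic factors and their partners, none of 16 measured genes was higher at E15.5 and 5 were lower, with a median log2 ratio of -0.75. Myod1, the determination factor, stood at 231 and 172 CPM, a ratio of -0.42 that is close to the shift of the median gene. Mef2c, the Mef2 factor of early muscle, stood at 1634 CPM (1559 to 1713) and 487 CPM (460 to 516), a log2 ratio of -1.75. After thinning, 72.1% of members at E12.5 and 31.7% at E15.5 held a UMI of Mef2c. Endothelial barcodes, which use the gene too, gave 62.9% and 45.2%. The inhibitors Id1, Id2 and Id3, which bind the partners of Myod1 and Myog, had log2 ratios of -1.88, -2.00 and -1.86. Id1 stood at 267 and 72.5 CPM in the members, while it stood at 246 and 238 CPM in the progenitors. Vgll2, a cofactor of muscle genes, stood at 220 and 337 CPM (0.61). Myf6, the factor of mature fibres, had 1 UMI at E12.5 and none at E15.5.

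Of the fusion and adhesion genes, 17 of 25 were measured, 3 were higher at E15.5 and 6 lower, or 4 and 4 relative to the median gene, with a median log2 ratio of -0.44, and their sum stood at 2335 and 1570 CPM. Itga4, an integrin subunit that binds fibronectin and Vcam1, stood at 413 and 60.7 CPM, a log2 ratio of -2.76. Ncam1, an adhesion molecule of muscle and nerve, stood at 468 and 93.0 CPM (-2.33), and the cadherin Cdh2 at 45.9 and 17.6 CPM (-1.38). Cdh15, the cadherin of muscle cells, was close to the median gene with 220 and 163 CPM (-0.44). Cav3, which forms the caveolae of muscle, stood at 27.2 and 193 CPM (2.83), and Ehd2, another protein of caveolae, at 12.2 and 51.1 CPM (2.07). Cd9, a tetraspanin with a part in fusion, stood at 2.81 and 28.5 CPM, but at 20.3 and 82.1 CPM in the other barcodes.

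Myosin heavy chains are the motor proteins of the fibre, and each stage of development uses its own isoforms. Of 5 measured genes, 4 were lower at E15.5 and none higher, with a median log2 ratio of -3.16, and the list's sum stood at 2751 and 793 CPM, a log2 ratio of -1.79 (-1.88 to -1.71). Myh3 (chr11:67078300-67102291, plus strand) stood at 2299 CPM (2209 to 2392) at the earlier age and 610 CPM (579 to 642) at the later, with a log2 ratio of -1.92. Myh7, the slow isoform of primary fibres, stood at 154 and 7.96 CPM (-4.27), Myh7b at 23.4 and 1.26 CPM and Myh1 at 33.8 and 3.77 CPM. Myh8, the perinatal isoform, stood at 225 and 171 CPM (-0.40), but this ratio was -1.79 without the 3 deepest members of each library and 0.99 with the rule read at 2000 UMIs. After thinning, 58.2% of E12.5 members (51.2 to 65.0) and 22.3% of E15.5 members (15.7 to 30.1) held a UMI of Myh3, and 0 of 151 and 0 of 146 endothelial barcodes did. Per member, the median was 704 CPM at E12.5 and 0 at E15.5, with 77 of 219 and 92 of 146 members at 0.

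Of the other sarcomere genes, 38 of 45 were measured, 19 were lower at E15.5 and 2 higher, or 12 and 4 relative to the median gene. Their median log2 ratio was -1.02, against -0.38 over all measured genes. Their sum stood at 42470 and 24052 CPM, a log2 ratio of -0.82. Ttn (chr2:76703980-76982547, minus strand) stood at 12974 CPM and 2378 CPM (-2.45), and Neb, the ruler of the thin filament, at 2948 and 689 CPM (-2.10). Lmod2 and Tcap, proteins of the thin filament and of the Z disc, had ratios of -5.00 and -3.80, and Mybpc1, the slow myosin-binding protein C, -2.72. The 2 higher genes were Tnni2, the fast troponin I, at 147 and 416 CPM, and Cryab, a small heat shock protein of the Z disc, at 209 and 457 CPM (1.13). Tnnt2 stood at 728 and 1201 CPM (0.72) and Tnnc2, the fast troponin C, at 584 and 913 CPM (0.64). Actc1, at 5317 and 4903 CPM, and Mylpf, at 2900 and 2747 CPM, had ratios of -0.12 and -0.08, which turn positive relative to the median gene. The direction of the fast genes depended on the barcodes used. With likely doublets left out, the ratio of Tnnc2 was -1.21, that of the fast troponin T gene Tnnt3 was -1.08, that of Mylpf was -1.48 and that of Tnni2 was 0.15. Ttn and Neb are thus among the 19 lower genes of a list in which 30 of 38 measured genes had ratios below 0 and 2 were higher. Per member, the summed sarcomere and myosin lists had a median of 29156 CPM at E12.5 and 10931 CPM at E15.5, and ranged from 3900 to 145716 CPM and from 1433 to 119557 CPM.

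Excitation-contraction coupling genes link the membrane signal to calcium release. Of 15 measured, 5 were lower and 1 higher at E15.5, where 21.4% and 4.35% of all measured genes were. Relative to the median gene, 3 were lower and 1 higher. Cacna1s, the voltage sensor, stood at 49.7 and 14.7 CPM (-1.76), and Atp2a1, the fast calcium pump, at 364 and 130 CPM (-1.48). Jsrp1, a protein of the junction between tubule and reticulum, stood at 42.2 and 114 CPM (1.44). At the neuromuscular junction, none of 9 measured genes was higher and 3 were lower. Relative to the median gene, 2 were higher and 1 lower, and the list's sum turned from -0.29 to 0.10. Musk, the kinase that clusters receptors, stood at 55.3 and 14.2 CPM (-1.96). Chrna1 stood at 197 and 212 CPM (0.11), and so did not follow Musk.

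The energy genes, isoforms of enzymes and carriers that muscle uses, did not share the direction of the sarcomere genes. Of 18 measured, 4 were higher and 3 lower, with a median log2 ratio of 0.20, and the sum stood at 4063 and 5639 CPM (0.47). Ckm, the muscle creatine kinase, stood at 3.75 CPM (1.02 to 9.60) and 132 CPM (117 to 147), from 4 and 314 UMIs, a log2 ratio of 5.13 (3.76 to 7.02). It was seen in few cells, since at E12.5 215 of 219 members and at E15.5 119 of 146 held no UMI of it, and after thinning the shares with a UMI were 0.962% and 10.8%. Ckb, the brain isoform, went the other way with 320 and 111 CPM (-1.53). Among subunits of cytochrome c oxidase, the muscle forms Cox6a2 (68.5 and 163 CPM, 1.26) and Cox8b (18.8 and 47.8 CPM, 1.35) and the general form Cox8a (563 and 1327 CPM, 1.24) were higher. Cox8a also stood at 390 and 761 CPM in the other barcodes. Mb, myoglobin, stood at 47.8 and 2.93 CPM (-4.03).

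In the dystrophin complex and the laminin receptors, 2 of 13 measured genes were higher and 5 lower, where 4.35% and 21.4% of all measured genes were. Relative to the median gene, 3 were higher and 5 lower. Itga7, the laminin integrin of fibres, stood at 3.75 and 28.1 CPM (2.90) and Itga6 at 25.3 and 60.3 CPM (1.25). Dag1, dystroglycan, stood at 113 and 220 CPM (0.97). The laminin chain Lama2 stood at 73.1 and 20.5 CPM (-1.83) and the syntrophin Sntb1 at 51.6 and 7.96 CPM (-2.70).

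The proliferation list differed in direction from nearly all muscle lists. Of 25 measured genes, 4 were higher at E15.5 and none lower, with a median log2 ratio of 0.41, and the sum stood at 2713 CPM (2615 to 2814) and 3666 CPM (3590 to 3744), a log2 ratio of 0.43 (0.37 to 0.50). The 4 were Aurkb (2.19) and Ube2c (1.19), which act in mitosis, Rrm2 (1.16), which makes nucleotides, and Cdk1 (1.13). Mki67 stood at 346 and 289 CPM (-0.26, and above 0 relative to the median gene) and Top2a at 595 and 746 CPM (0.32). The list's sum was lower at E15.5 in the other barcodes, with 4538 and 3289 CPM, and in the progenitors, with 7080 and 6054 CPM. The difference in the members' sum was lost when members were chosen by 1000 CPM or more of the rule genes (-0.013) and in male members alone (-0.047). After thinning, 40.4% of E12.5 members (33.7 to 47.4) and 41.7% of E15.5 members (33.4 to 50.4) held a UMI of Mki67 or Top2a, and no difference was detectable at this depth. Progenitors gave 82.8% and 72.3%, and endothelial barcodes 56.3% and 37.7%. Per member, the list's median was 874 and 940 CPM and its upper quartile 2591 and 6255 CPM, so the sum differed through the members with the most.

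Among inhibitors of the cell cycle and D cyclins, Cdkn1c (p57) stood at 6943 CPM (6786 to 7103) and 11882 CPM (11744 to 12022), a log2 ratio of 0.78, and at 1954 and 3744 CPM in the other barcodes. Cdkn1a (chr17:29090976-29100727, plus strand) stood at 624 and 356 CPM (-0.81), while it stood at 8.31 and 27.8 CPM in the other barcodes. After thinning, 63.0% and 31.7% of members held a UMI of Cdkn1a, against 2.65% and 4.11% of endothelial barcodes. Of 10 measured genes of this list, 2 were lower and none higher, and the share lower is near the 21.4% of all measured genes. Those 2 were Ccnd2 (-2.49) and Ccnd1 (-1.69), which drive entry into the cycle, and Ccnd3, the D cyclin of differentiating muscle, stood at 195 and 273 CPM (0.49).

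Genes with stage-specific use in other embryonic tissues also differed. In the heterochronic and imprinted list, none of 13 measured genes was higher and 7 were lower, with a median log2 ratio of -1.13. Over all measured genes, 21.4% were lower. Relative to the median gene, 4 of the 13 were lower, where 10.9% of all measured genes were. Hmga2 (chr10:120361275-120476469, minus strand), a chromatin protein of early embryonic cells, stood at 249 and 11.7 CPM (-4.40), and at 1186 and 79.6 CPM in the other barcodes. Igf2 stood at 1784 and 509 CPM (-1.81), H19, the RNA made from the same imprinted locus, at 2106 and 833 CPM (-1.34), and Igf2bp1 at 196 and 59.9 CPM (-1.71). In the nuclear factor I family, 2 of 4 genes were higher, with a median log2 ratio of 1.00, and the sum stood at 233 and 480 CPM (1.04). Under the alternatives given below the ratio of the sum ran from 0.43 to 1.81. At E15.5 the family was higher in members near the threshold than in the rest, as given below. Nfix (chr8:84699876-84800344, minus strand), known for driving the foetal programme of muscle, stood at 24.4 and 88.0 CPM (1.85), and Nfia at 47.8 and 101 CPM (1.07). Nfix also stood at 131 and 239 CPM in the other barcodes and at 71.3 and 121 CPM in the progenitors, so its level in members was the lowest of the 3 sets at both ages. After thinning, 3.37% and 12.9% of members held a UMI of Nfix, and 3.97% and 4.11% of endothelial barcodes.

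In the Notch pathway, 1 of 8 measured genes was higher and 2 lower, where 4.35% and 21.4% of all measured genes were, and relative to the median gene 1 was higher and 1 lower. The higher one was Dlk1, a Notch-like ligand, at 239 and 818 CPM (1.77), and at 206 and 1711 CPM in the other barcodes. The receptors Notch3 and Notch2 had ratios of -1.95 and -1.26. In the list of myostatin and follistatin genes, none of 8 measured genes was higher and 5 were lower. Fst, follistatin, which binds and blocks myostatin and activins, had 138 UMIs (129 CPM) at E12.5 and 37 UMIs at E15.5, a log2 ratio of CPM of -3.06. In the other barcodes it was higher at E15.5, with 10.8 and 79.6 CPM. Mstn, myostatin itself, stood at 164 and 155 CPM (-0.09, and above 0 relative to the median gene), and in the progenitors at 0 and 119 CPM.

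The age ratios were ranked among measured genes at 50 CPM or more at either age. Mitochondrial, ribosomal protein, haemoglobin, Xist, Tsix and Y-linked genes were left out of the ranking. The lowest ratios in members were those of Col2a1 (-6.12), Sema3d (-5.31) and the unnamed gene Gm47405 (-5.03). Col2a1, the collagen of cartilage, stood at 145 and 2.09 CPM in the members and at 1078 and 196 CPM in the other barcodes. The chondrocyte markers as a list summed to 828 and 335 CPM in endothelial barcodes, and the part of such RNA in the members was not tested. Myo5b stood at 119 and 5.03 CPM and Frem2, a protein of the Fraser complex, at 149 and 6.70 CPM, while neither passed 5 CPM in the other barcodes. The highest ratios after Ckm belonged to the metallothionein Mt1 (4.49) and to Cck (4.28), the cholecystokinin gene. Mt1 stood at 5.63 and 127 CPM in members and at 8.67 and 111 CPM in the other barcodes. Cck stood at 3.75 and 72.9 CPM, and in the progenitors at 0 and 126 CPM. S100a10, at 37.5 and 393 CPM, and Dcn, at 10.3 and 87.1 CPM, were each higher still in the other barcodes at E15.5, with 755 and 919 CPM. Cavin2, another gene of caveolae, stood at 54.4 and 402 CPM (2.88). Tex14 stood at 12.2 and 88.8 CPM and was under 1 CPM in the other barcodes at both ages.

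Several of these ratios depended on a few deep members. At E15.5 the 3 deepest members, with 94309, 77143 and 56686 UMIs, held 9.56% of member UMIs but 60.8% of those of Myh3, 43.2% of Ttn, 69.3% of Myh8 and 45.8% of Mef2c. They held 0.434% of the UMIs of the proliferation list and 2.18% of the nuclear factor I family. Myh3 stood at 3875 CPM in them and at 264 CPM in the remaining members. They held 227, 360 and 297 UMIs of Myh3, and 17, 80 and 1 of Ckm, and no UMI or at most 2 of Mki67 and Top2a. These 3 barcodes were picked out after the values were seen. Without the 3 deepest members of each library the ratios were -3.04 for Myh3, -3.08 for Ttn, -2.97 for the myosin list, -1.20 for the other sarcomere genes, -2.43 for Mef2c, -1.30 for Cdkn1a and 4.66 for Ckm. The ratio of each was thus more negative without them, except that of Ckm. At E12.5 the 3 deepest held 5.10% of member UMIs.

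Doublets, droplets with more than 1 cell, and the depth difference also moved these ratios. When likely doublets were left out, 63 members (28.8%) at E12.5 and 18 (12.3%) at E15.5 were lost, against 9.66% and 4.60% of kept barcodes. The ratio of Ckm was then 1.84, that of Acta1, skeletal actin, turned from 0.36 to -1.99, and that of the other sarcomere genes was -1.49. When the rule was read on barcodes thinned to 2000 UMIs, the ratios were -1.11 for Myh3, -1.87 for Ttn, -0.93 for the myosin list and -0.40 for the other sarcomere genes. When members were chosen by 1000 CPM or more of the rule genes, they were -1.50, -2.12, -1.38 and -0.48. Myh3, Ttn, Mef2c, Hmga2 and both lists were lower at E15.5 under each of the 15 alternatives.

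**Figure D4:**
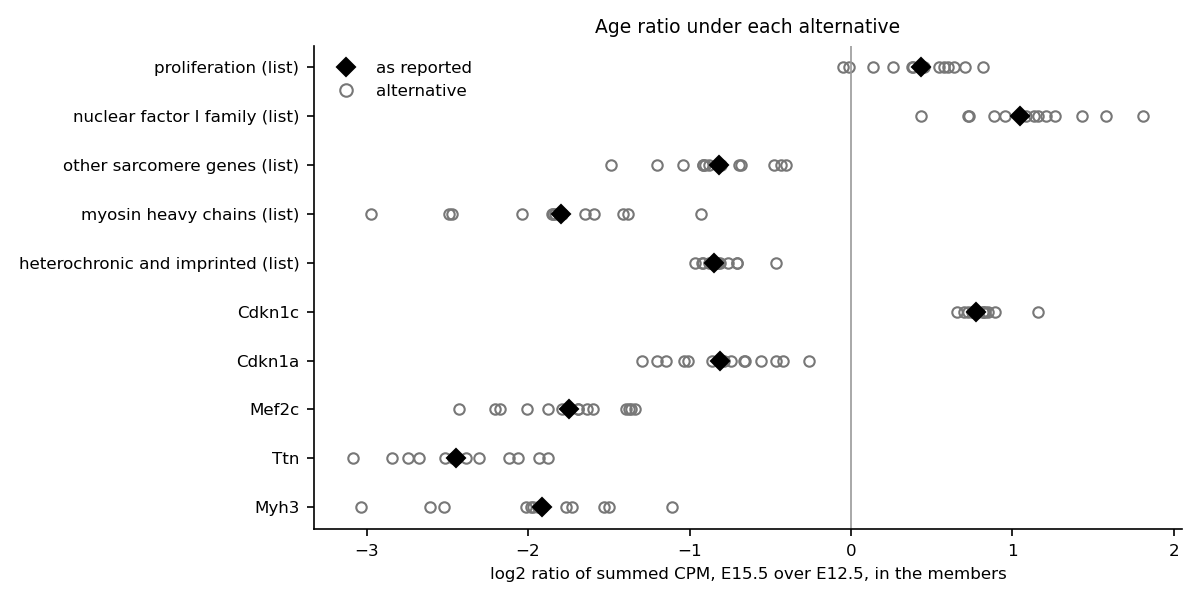
The log2 ratio of summed CPM in the members, E15.5 over E12.5 (horizontal axis), for 10 genes and lists, as reported (black diamonds) and under each of 15 alternatives (open circles). Ttn and Myh3 lie left of 0 throughout, and the proliferation list reaches -0.047.

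The members were not uniform. Those without a UMI of Mymk or Mymx were 21 of 219 at E12.5, with a median of 3898 UMIs, and 23 of 146 at E15.5, with 14119 UMIs, close to the 4230.5 and 14508 UMIs of the rest. This split uses genes of the rule and is a description. Members with a fusion gene UMI held more Cdkn1a, at 663 against 213 CPM at E12.5 and 419 against 13.5 CPM at E15.5, log2 ratios of 1.64 (1.00 to 2.36) and 4.96 (3.73 to 6.58). Myh3 stood at 2447 against 767 CPM at E12.5 and 720 against 10.8 CPM at E15.5, where only 4 UMIs came from members without one. The other sarcomere genes had ratios of 0.95 and 2.26. The proliferation list went the other way, with 2604 against 3843 CPM (-0.56) and 3119 against 6646 CPM (-1.09). At E15.5 Pax7 stood at 13.9 CPM in members with a fusion gene UMI and 89.1 CPM in those without, and Myog at 1657 and 370 CPM. The E15.5 members without a fusion gene UMI thus held less Myog than the rest, and the split there shrank with a stricter rule. With 1000 CPM or more of the rule genes, the ratio of the sarcomere genes was 0.15 and that of the proliferation list 0.48, and with the rule read at 2000 UMIs they were 0.83 and 0.20.

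**Figure D5:**
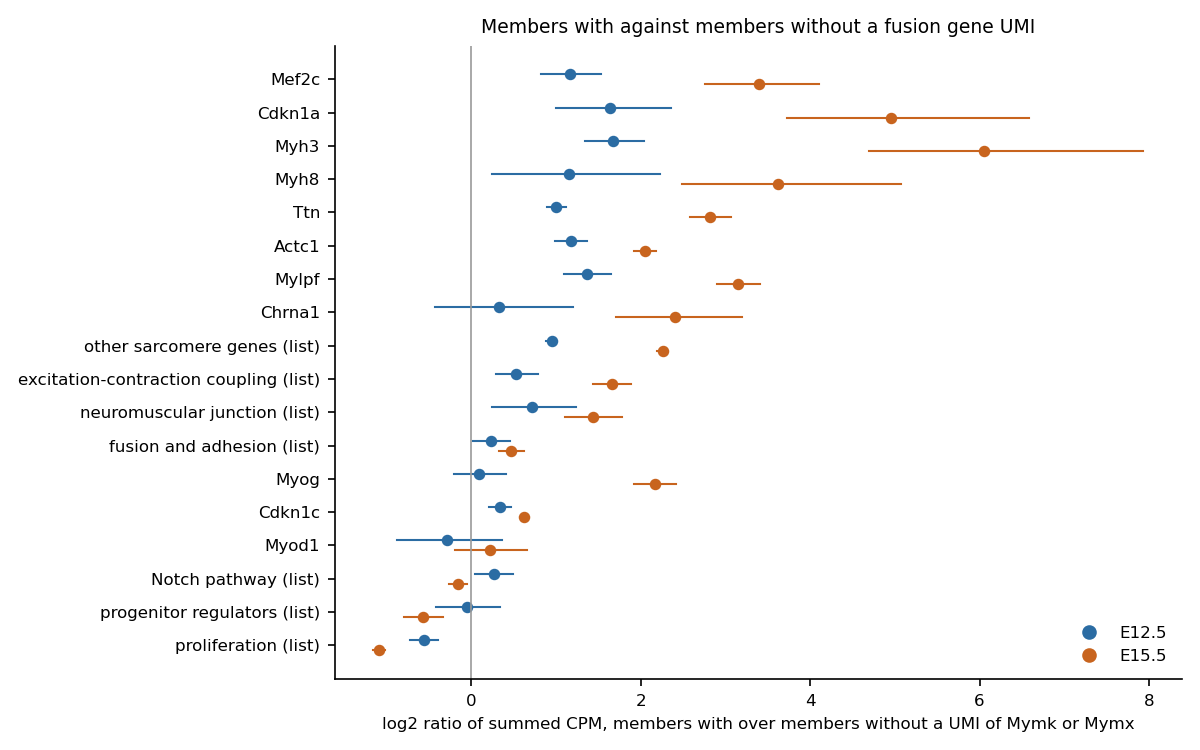
The log2 ratio of summed CPM (horizontal axis) in members with over members without a UMI of Mymk or Mymx, for genes and gene lists (rows), at E12.5 (blue, 198 and 21 members) and E15.5 (orange, 123 and 23 members), with 95% counting intervals. Cdkn1a and Myh3 lie right of 0 at both ages and the proliferation list left of it.

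Expression of Mki67 or Top2a split the members in another way, chosen after the data were seen. With barcodes thinned to 2000 UMIs, Myh3 was seen in 44.0% of the 84 members with a UMI of Mki67 or Top2a and 67.7% of the 124 without at E12.5, and in 0 of 58 (upper bound of the exact interval 6.16%) and 38.3% of 81 at E15.5. Cdkn1a was seen in 61.9% and 63.7% at E12.5, and in 17.2% (8.59 to 29.4) and 42.0% (31.1 to 53.5) at E15.5. A UMI of Mymk or Mymx was seen in 57.1% and 76.6% at E12.5, and in 43.1% and 72.8% at E15.5. Ttn was seen in 97.6% and 98.4%, and in 55.2% and 76.5%. In the summed counts, Acta1 stood at 433 CPM with and 882 CPM without Mki67 or Top2a UMIs at E12.5, and at 476 and 1324 CPM at E15.5. The nuclear factor I family went the other way, at 281 and 161 CPM and at 577 and 313 CPM. At full depth Myh3 stood at 480 CPM with and 831 CPM without such UMIs at E15.5. Of the 721 Myh3 UMIs of the E15.5 members with Mki67 or Top2a, 360 and 297 came from the second and the third deepest members, which held 2 and 1 UMIs of these genes. The list of other sarcomere genes was lower in members with Mki67 or Top2a at both ages, at 33383 against 55941 CPM and 17549 against 35111 CPM.

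Members near the threshold were also set against the rest, in a split that uses the rule and is a description. At E15.5 the 30 members with 3 to 6 UMIs of the rule genes held 9 of the UMIs of Acta1 (23.1 CPM), where the 116 members with 7 or more held 1876 (940 CPM). They held no UMI of Ckm, and the others 314. Pax7 stood at 89.7 CPM in the former and 13.0 CPM in the latter, the nuclear factor I family at 956 and 387 CPM, and the proliferation list at 6215 and 3168 CPM. At E12.5 the 89 members with 3 to 6 UMIs held Acta1 at 379 CPM and the 130 with 7 or more at 736 CPM, and the proliferation list stood at 3256 and 2431 CPM. The other sarcomere genes were higher in members with 7 or more by log2 ratios of 0.71 at E12.5 and 2.62 at E15.5. Whether the ages differ in this was not tested.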

How the data were processed

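RNA of single cells was captured with the 10x 3' v3.1 kit, at 20000 input and 10000 target cells, per the labels' protocols. The deposited files hold raw UMI counts per gene and barcode, 1 library per age. Per the submitters' processing notes, the authors used Cell Ranger 4.0.0, Seurat 4.3.0 and the mm10 build. Cell-calling settings are not given in the sources used here.

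Counts were summed over members, over Pax7 and Myf5 progenitors, over endothelial barcodes (2 or more UMIs of Cdh5 and Pecam1) and over other kept barcodes, and scaled to CPM, in Python 3.11.15 with scipy 1.17.1. Intervals are exact Poisson for CPM, exact conditional for log2 ratios and Clopper-Pearson for shares. UMIs count molecules, but the intervals of CPM and log2 ratios hold no variation between cells. None of the intervals holds variation between embryos. A gene was measured at 20 CPM or more in either set, and called at a log2 ratio of 1 or more in size with an interval clear of 0. Shares of barcodes with a UMI were also read after thinning each barcode to 2000 UMIs, which left out 11 members at E12.5 and 7 at E15.5. Likely doublets were not removed in the reported values. They were left out in an alternative that used the share of simulated doublets among a barcode's neighbours. That alternative left out barcodes with the highest scores, up to 0.8% per 1000 barcodes. Sex was read from Xist and Y-linked genes. The ratios were tested on simulated data that held counting error only, so that test does not cover variation between cells, depth or doublets. Gene positions come from GENCODE vM21 on GRCm38, where 32235 of 32285 gene identifiers matched.

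The members and the gene lists were chosen with earlier results of these data known. Genes named in the text are the rule genes and a fixed set of myogenic and cell cycle genes. In each list, up to 4 with the highest and 4 with the lowest ratios are named. The 10 highest and 10 lowest ratios at 50 CPM or more are named too. That ranking left out mitochondrial, ribosomal protein, haemoglobin, Xist, Tsix and Y-linked genes. The 15 genes highest over other barcodes in each library are also named. The alternatives changed the gene, mitochondrial and rule thresholds, the depth at which the rule was read, doublets, connective tissue UMIs and the sex read from the data. Settings added after seeing the data left out the 3 deepest members or kept those with 7 or more rule UMIs, and the splits of the members by Mki67 or Top2a and at 7 rule UMIs were added then too. The values of 1 gene that the naming rule selects are not reported here.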

Additional observations from a re-analysis of the deposited data

Results flagged for a closer look

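Summed fusion and adhesion genes had a log2 ratio (E15.5 over E12.5) of -0.57 in the members and of 0.095 in the other kept barcodes, in opposite directions. The summed proliferation genes had a ratio of 0.43 in the members, -0.46 in the other kept barcodes and -0.23 in the progenitors. The summed Notch pathway genes were higher in members with a fusion gene UMI than in those without at E12.5, with a log2 ratio of 0.26, and lower at E15.5, with -0.16. With 1 library per age, none of these 3 differences was tested.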

How the results depend on the processing

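Without replicates no result had a threshold of a test, and a value counts as moved when it left its counting interval, or, for a count of genes, changed by over 1.5 times. Of the values of named genes, 1802 stayed, 459 moved and 2 that had passed 2-fold reversed over the alternatives, and of gene lists 229, 153 and 7. With the rule read at 2000 UMIs the ratio (log2, E15.5 over E12.5) of Myf5 reversed to -0.18, of Dysf to 0.10 and of the connective tissue list to -0.17, and the last was -0.072 in members without connective tissue UMIs. With members at 1000 CPM or more of the rule genes, the proliferation list stood at -0.013 and the immune list at 1.22. In male members they were -0.047 for proliferation and 0.081 for the Schwann list. Relative to the median gene the neuromuscular junction list stood at 0.10. The E15.5 split of the proliferation list by fusion genes reversed to 0.20 at 2000 UMIs and to 0.48 at 1000 CPM. The cause of these reversals was not tested.

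The share of members at E12.5 was 2.05% with 1000 or more genes, 2.09% with a rule sum of 2, 1.42% with 5, 1.06% with 7, 1.55% at 1000 CPM, 1.41% without likely doublets, 1.21% without connective tissue UMIs, 2.83% among male and 1.47% among female barcodes. At E15.5 it was 2.71% under 5% mitochondrial UMIs, 2.996% with 2 of the 3 genes, 2.32% at 2000 UMIs, 2.61% at 1000 CPM, 2.95% without connective tissue UMIs and 2.83% with a sum of 7. Counts of genes higher and lower were 787 and 721 relative to the median gene and 149 and 683 at a minimum of 50 CPM, and 2248 were lower at 5 CPM.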

Other observations

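Members with and without Myod1 could not be told apart in these shares at this depth. After thinning to 2000 UMIs, a UMI of Mymk or Mymx was seen in 68.0% of the 75 members with a UMI of Myod1 and in 69.2% of the 133 without at E12.5, and in 65.6% of 32 and 58.9% of 107 at E15.5. Cdkn1a was seen in 68.0% and 60.2% at E12.5 and in 34.4% and 30.8% at E15.5, and each pair of intervals overlapped.

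In the Schwann cell list, Erbb3, a receptor that muscle progenitors are also known to use, led in the members at both ages. That list summed to 139 and 88.0 CPM in the members and to 13.3 and 3.22 CPM in endothelial barcodes. The tenocyte list summed to 10.3 and 37.3 CPM in the members, with Tnmd, Mkx and Thbs4 at 0 at E12.5 and none at 0 at E15.5, and to 95.8 and 192 CPM in the other kept barcodes.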
